A study of Mus musculus with 12 samples.

Results

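A set of 10 effector genes that neurons switch on after activity was examined in the hippocampus of mice given Gulf War toxicants: Arc, Homer1, Nptx2, Ptgs2, Plk2, Plk3, Rgs2, Rgs4, Rheb and Inhba. They were taken as a list of symbols and are 10 of the 41743 genes of the deposited table. All 10 were among the 13493 genes that averaged 0.5 RPKM or more (reads scaled to gene length and library depth), which were the genes tested. Male C57Bl/6 mice, 12 weeks old, were injected under the skin each weekday for 2 weeks. The toxicant group was given 2.5 mg/kg pyridostigmine bromide and 12.5 mg/kg chlorpyrifos, which both inhibit cholinesterase, together with 7.5 mg/kg of the insect repellent DEET. The control group was given vehicle. Whole hippocampi of different animals were taken when the exposure ended and their polyadenylated RNA was sequenced. The 3 agents were always given together, so their single effects cannot be told apart.

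Strong synaptic input lets calcium into a neuron, and calcium-dependent kinases then act on factors such as CREB, SRF and MEF2 that are already bound at target genes. The genes switched on include transcription factors and, as here, effectors that act at the synapse itself. Arc protein removes AMPA receptors from the synaptic surface. The other products loosen or rebuild synaptic scaffolds, cluster receptors, limit receptor signalling or are secreted. In the hippocampus, Arc RNA is a common marker of recently active neurons. Rheb was named as such a gene, but it is also transcribed steadily in most cells.

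The control column numbered 4 and the one numbered 5 held identical values and were counted once, as control 4-5, so that 5 control and 6 toxicant libraries were compared. The reads behind the RPKM scale came to between 21.5 M and 34.9 M per library, and a member of the set was backed by 98 to 5855 reads in a library. The percentage of reads lying on annotated genes, called the gene share below, ranged from 78.4% to 89.5% in control libraries and from 76.8% to 83.8% in toxicant libraries. Controls 1, 3 and 6 lay above every toxicant library in it. None of the neuronal and glial markers looked at was at 0 throughout, and the summed level of 6 markers of neurons of all kinds was 499 to 531 RPKM in control and 472 to 561 RPKM in toxicant libraries. The 6 markers of excitatory neurons summed to 1201 to 1991 RPKM in control and 1116 to 1487 RPKM in toxicant libraries, with a median log2 fold change of -0.29. The 6 markers of dentate granule neurons had a median of -0.33 and the 6 of oligodendrocytes a median of -0.52. Markers of microglia, endothelial cells, and pericytes and smooth muscle had medians of -0.24, -0.32 and -0.23, and 3 tested blood cell markers a median of -0.43, while those of GABAergic neurons, astrocytes and oligodendrocyte precursors were at -0.12, -0.10 and -0.15. For 4 of the 6 endothelial markers and 2 of the 6 oligodendrocyte markers, no toxicant library reached the lowest control. The same held for 1 of the 5 markers of pericytes and smooth muscle and for 2.03% of all genes tested. All genes tested had a median log2 fold change of -0.11. The 6 choroid plexus markers come from tissue next to the hippocampus. They summed to between 16.6 and 2891 RPKM in control and between 15.0 and 1805 RPKM in toxicant libraries. All 6 had a log2 fold change below 0, with a median of -0.64, and none had a limma unadjusted p under 0.05. The part of these markers in the differences below was not tested, and in bulk tissue fewer cells of a type cannot be told apart from less RNA per cell.

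The promoters of Plk2, Plk3 and Homer1 are shown because the motif bound by CREB, one of the calcium-dependent factors, is written in them and because the toxicant means were lower than control for Plk2 and Plk3 and higher for Homer1. The sequences are the 250 bases before a RefSeq start on GRCm38.p6, 5′ to 3′ on the strand of the gene. Capitals mark the cAMP response element TGACGTCA or its 5-letter part TGACG. The positions are chr13:110394794-110395043 (plus strand) for Plk2, chr4:117133964-117134213 (minus strand) for Plk3 and chr13:93303507-93303756 (plus strand) for the first of the 2 Homer1 starts.
Plk2: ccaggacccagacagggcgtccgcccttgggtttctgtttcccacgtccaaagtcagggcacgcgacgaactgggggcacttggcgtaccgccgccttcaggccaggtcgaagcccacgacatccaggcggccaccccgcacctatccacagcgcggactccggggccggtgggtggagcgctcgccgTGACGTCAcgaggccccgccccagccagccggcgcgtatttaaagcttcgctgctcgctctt
Plk3: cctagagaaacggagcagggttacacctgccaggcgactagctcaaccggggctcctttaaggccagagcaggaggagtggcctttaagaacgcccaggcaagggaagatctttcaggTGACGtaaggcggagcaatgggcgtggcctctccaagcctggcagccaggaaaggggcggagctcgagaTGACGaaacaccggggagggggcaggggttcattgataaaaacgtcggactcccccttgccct
Homer1: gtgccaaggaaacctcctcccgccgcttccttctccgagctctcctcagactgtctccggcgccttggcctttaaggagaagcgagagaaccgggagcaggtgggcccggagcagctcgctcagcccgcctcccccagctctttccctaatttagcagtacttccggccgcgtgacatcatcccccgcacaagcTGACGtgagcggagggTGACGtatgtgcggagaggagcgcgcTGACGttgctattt

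Of the 10 genes, 8 had a RefSeq promoter window, which ran from 250 bases before the start to 50 bases after it, and Homer1 had 2 windows. Arc and Nptx2 had no entry. On either strand, TGACG occurred in a window of 7 of the 8 genes, all but Inhba, and in 20.8% of all 32851 windows. The full 8-letter element occurred only in the Plk2 window among these genes, at position -62 relative to the start, and in 1.79% of all windows; each full element also counts as TGACG on both strands. The CArG box of SRF was in none of the 8 genes and in 1.63% of all windows, and the AP-1 site TGANTCA was in none of them and in 7.81% of all windows. The EGR-type site GCGNGGGCG was in the Rgs2 window and in 5.55% of all windows. TATAAA was in the windows of Inhba and Rgs4 and in 13.6% of all windows, and the GC box GGGCGG in those of 5 genes and in 35.7% of all windows. A match is a run of letters and was not tested as a binding site.

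Arc was the member that differed most between the groups. It lies on chromosome 15 (74669083 to 74672570, minus strand, GRCm38; ENSMUSG00000022602). In the control libraries 1, 2, 3, 4-5 and 6 its level was 44.7, 34.9, 40.9, 33.2 and 31.2 RPKM. In the toxicant libraries it ranged from 14.6 to 23.7 RPKM with a median of 20.5 RPKM. Every toxicant library lay below every control, and the highest toxicant value was well under the lowest control value. Controls averaged 37.0 ± 5.64 RPKM (SD, n = 5) and exposed animals 20.04 ± 3.59 RPKM (SD, n = 6), a difference of -45.8%. On the log2(RPKM + 0.5) scale, used for every fold change here, the difference was -0.87 ± 0.14 (SE), with a 95% interval from -1.17 to -0.58. By unadjusted p it held rank 4 among all genes tested, and its limma adjusted p of 0.0715 missed the threshold of 0.05. No gene passed that threshold in this comparison.

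The absence of a call for Arc depended on 1 control library and on the treatment of the duplicate column. Without control 2 the Arc log2 fold change was -0.89 (limma adjusted p = 0.0227). In that setting 4932 of 13468 tested genes passed the threshold. With all 12 columns as deposited Arc was at -0.85 (limma adjusted p = 0.0216), and 10 of 13493 genes passed. Over 25 alternatives the Arc log2 fold change stayed between -0.93 and -0.71. It passed the threshold in 3 of them, with limma adjusted p between 0.000176 and 0.334. In the other setting that called Arc, sample weights, 9553 of 13493 genes passed.

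Plk3 and Plk2, the activity-induced polo-like kinases, were the other members with lower means beyond an unadjusted p of 0.05. Plk2 phosphorylates regulators of Ras and Rap at the synapse and is tied to the weakening of synapses after prolonged activity. Plk3 is a stress and cell-cycle kinase. Plk3 (chromosome 4, 117128655 to 117133963, minus strand; ENSMUSG00000028680) stood at 3.33, 2.36, 2.96, 2.74 and 2.89 RPKM in controls 1, 2, 3, 4-5 and 6. The toxicant libraries ranged from 1.62 to 2.32 RPKM around a median of 1.98 RPKM. The groups again did not overlap, although control 2 was close to the highest toxicant library. The means were 2.86 ± 0.354 RPKM (SD, n = 5) and 1.99 ± 0.276 RPKM (SD, n = 6), a log2 fold change of -0.43 ± 0.10 (SE), with a limma adjusted p of 0.158. Plk3 rests on 100 to 255 reads a library and shares 84 exon bases, 3.32% of its exons, with the opposite-strand gene Tctex1d4, which averaged 0.554 RPKM.

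Plk2 (chromosome 13, 110395046 to 110400844, plus strand; ENSMUSG00000021701) was the most abundant member in control libraries beside Arc. Its control levels were 42.4, 34.2, 37.9, 37.3 and 37.4 RPKM in the order above, and its toxicant levels ran from 26.5 to 34.6 RPKM with a median of 30.7 RPKM. In 4 of the 6 toxicant libraries Plk2 lay below the lowest control, which was control 2, and in the other two just above it. Controls averaged 37.8 ± 2.93 RPKM (SD, n = 5) and exposed animals 31.0 ± 3.28 RPKM (SD, n = 6). The log2 fold change was -0.29 ± 0.09 (SE), with a limma adjusted p of 0.207. Adding the gene share to the model gave -0.16, and it was -0.12 after quantile normalization. Without control 2, Plk3 was at -0.49 and Plk2 at -0.32, with limma adjusted p of 0.0227 and 0.0259. In that setting 4932 of 13468 tested genes passed the threshold.

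Beside these counts stand those of all genes. Of the members, 3 had an unadjusted p under 0.05 and a lower mean in toxicant libraries (Arc, Plk3 and Plk2), as did 17.0% of all genes tested. Homer1 alone had an unadjusted p under 0.05 and a higher mean, as did 3.33% of all genes. For 2 members, Arc and Plk3, no toxicant library reached the lowest control, as for 2.03% of all genes, and none lay wholly above the controls, as for 0.111% of all genes. At the adjusted threshold, the share was 0.0% of all genes and 0 of the 10 members. The median log2 fold change of the members was -0.04, with 5 values below 0 and 5 above, against a median of -0.11 and 69.96% of values below 0 over all genes tested. Both medians depend on the scaling: after median-ratio scaling they were 0.06 and -0.02, and after quantile normalization 0.09 and -0.04. By an exact rank-sum permutation test, no gene passed after adjustment and 1430 genes had an unadjusted p under 0.05. In that test Arc and Plk3 had an unadjusted p of 0.00433, the smallest it can give with these libraries. Plk2 was at 0.0173 and Homer1 at 0.126 in the same rank-sum test.

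**Figure D1:**
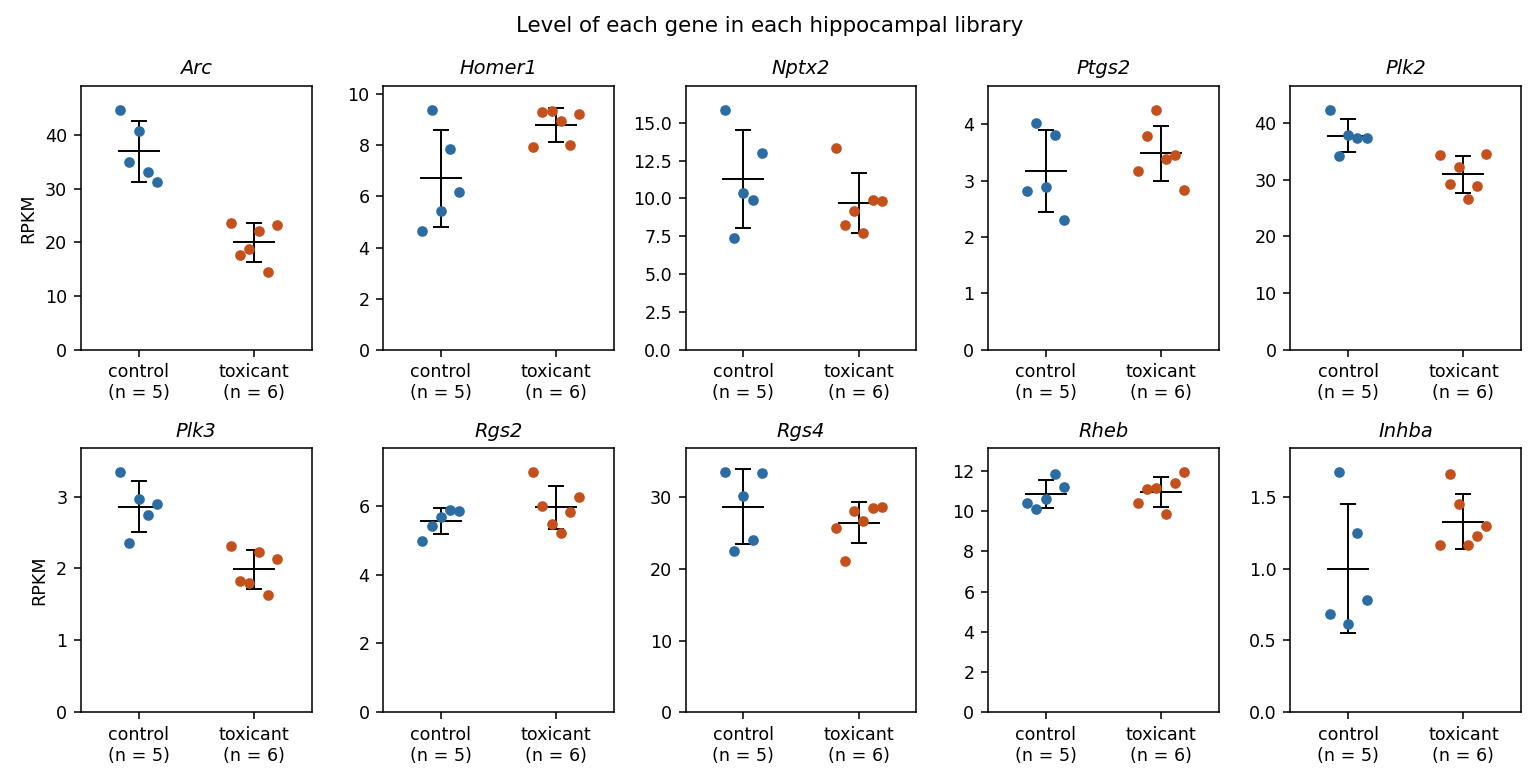
Level of each of the 10 genes in RPKM (vertical axes, from 0) in 5 control libraries (blue) and 6 toxicant libraries (orange); horizontal bars are means and whiskers 1 SD. The 2 groups do not overlap for Arc and Plk3, overlap only at control 2 for Plk2 and Homer1, and overlap further for the other 6 genes.

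Homer1 stood on the other side. Long Homer proteins link group 1 metabotropic glutamate receptors to the postsynaptic scaffold, and a short, activity-induced form, Homer1a, uncouples them. The table holds 1 value for all 12 annotated transcripts of Homer1, with 11976 exon bases, so Homer1a was not measured by itself. Homer1 (chromosome 13, 93299635 to 93405129, plus strand; ENSMUSG00000007617) was at 4.66, 9.39, 5.42, 7.86 and 6.18 RPKM in controls 1, 2, 3, 4-5 and 6. In the toxicant libraries it lay between 7.93 and 9.36 RPKM with a median of 9.09 RPKM. Control 2 was as high as the highest toxicant library, control 4-5 was just under the lowest, and controls 1, 3 and 6 were clearly lower. The mean was 6.70 ± 1.91 RPKM (SD, n = 5) against 8.80 ± 0.653 RPKM (SD, n = 6), and the log2 fold change was 0.41 ± 0.14 (SE), with a limma adjusted p of 0.219.

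Among the controls the Homer1 level moved with the gene share. Homer1 was lowest in control 1, where 89.5% of reads lay on genes, and then higher in controls 3 (88.4%), 6 (87.4%), 4-5 (83.1%) and 2 (78.4%), exactly the reverse order of that share. The toxicant libraries kept this order only in part. Toxicant 1, with the highest share (83.8%), was lowest at 7.93 RPKM. Toxicants 3 (80.9%) and 2 (78.7%) were highest at 9.36 and 9.31 RPKM. Against the order, toxicant 4 with the lowest share (76.8%) was at 8.97 RPKM and toxicant 6 (83.1%) at 9.22 RPKM. With the gene share in the model the log2 fold change was 0.13, and without controls 1, 3 and 6, an alternative chosen after the data were seen, it was 0.03. Without control 2 it was 0.53 (limma adjusted p = 0.0227), where 4932 of 13468 tested genes passed the threshold. The part of the gene share in the difference was not tested.

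Inhba, the inhibin beta A subunit whose dimer is the secreted activin A, was the least abundant member (chromosome 13, 16011851 to 16031621, plus strand; ENSMUSG00000041324). Its control levels were 0.685, 1.67, 0.615, 1.25 and 0.781 RPKM in the order above, and its toxicant levels ran from 1.16 to 1.66 RPKM with a median of 1.26 RPKM. Controls 1, 3 and 6 lay below every toxicant library, control 4-5 among them and control 2 at their upper end. The means were 0.999 ± 0.448 RPKM (SD, n = 5) and 1.33 ± 0.194 RPKM (SD, n = 6), and the log2 fold change was 0.33 ± 0.16 (SE), with a limma adjusted p of 0.256. It was 0.03 with the gene share in the model and -0.10 without controls 1, 3 and 6. Without control 2 it was 0.47 (limma adjusted p = 0.0259), where 4932 of 13468 tested genes passed the threshold. Inhba rests on 98 to 327 reads a library.

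Levels can also be set side by side in the single libraries of the groups that were closest in gene share, which allows no test. Control 2 and toxicant 2 had shares of 78.4% and 78.7%. Homer1 was at 9.39 and 9.31 RPKM in them and Inhba at 1.67 and 1.66 RPKM, while Arc was at 34.9 and 17.7 RPKM and Plk3 at 2.36 and 1.82 RPKM. Control 4-5 and toxicant 6 both had 83.1%. Arc was at 33.2 RPKM in the first and 23.2 RPKM in the second, Plk3 at 2.74 and 2.13 RPKM, Homer1 at 7.86 and 9.22 RPKM and Inhba at 1.25 and 1.30 RPKM. Each pair sets 1 library against 1, and the part of the gene share in these differences was not tested. With the gene share in the model the log2 fold change of Arc was -0.78 and that of Plk3 was -0.33, with limma adjusted p of 0.162 and 0.257.

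**Figure D2:**
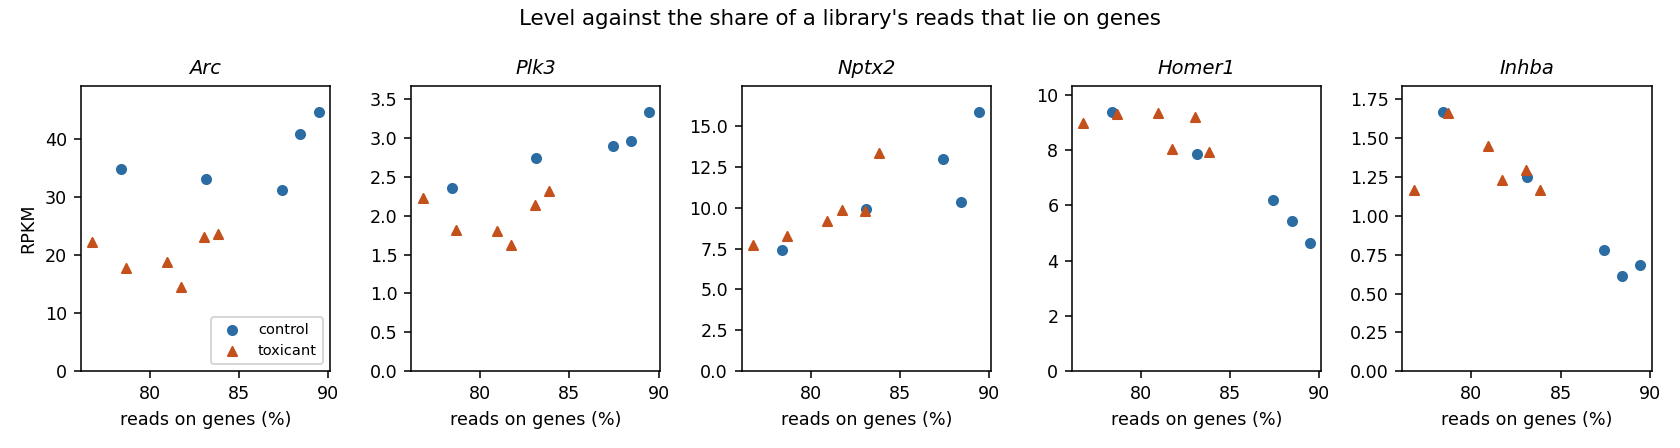
Level in RPKM (vertical axes) of Arc, Plk3, Nptx2, Homer1 and Inhba against the percentage of a library's reads that lie on genes (horizontal axes), 1 point for each of 5 control (circles) and 6 toxicant libraries (triangles). The Arc values of the groups do not overlap. For Homer1 and Inhba, controls 1, 3 and 6, which have the highest controls' shares, lie below every toxicant library. The toxicant points of Nptx2 rise with the share except between toxicants 5 and 6, and those of the other genes depart further from its order. The part of the share in the differences was not tested.

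Transcript GC content also varied with the direction of the differences. Over the tested genes cut into deciles by the GC content of their longest transcript, the median log2 fold change was 0.24 in the lowest decile and -0.16 in the highest. Homer1 (36.9% GC) and Ptgs2 (40.0%) lay in the lowest decile, and Arc (59.0%) and Plk3 (58.8%) in the highest. After each library's trend with GC content was removed, the log2 fold change was -0.72 for Arc, -0.28 for Plk3, 0.14 for Homer1 and 0.16 for Inhba, none past the adjusted threshold. Arc lay far below the median of its decile, while Nptx2 (58.3% GC, log2 fold change -0.19) lay near their median.

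**Figure D3:**
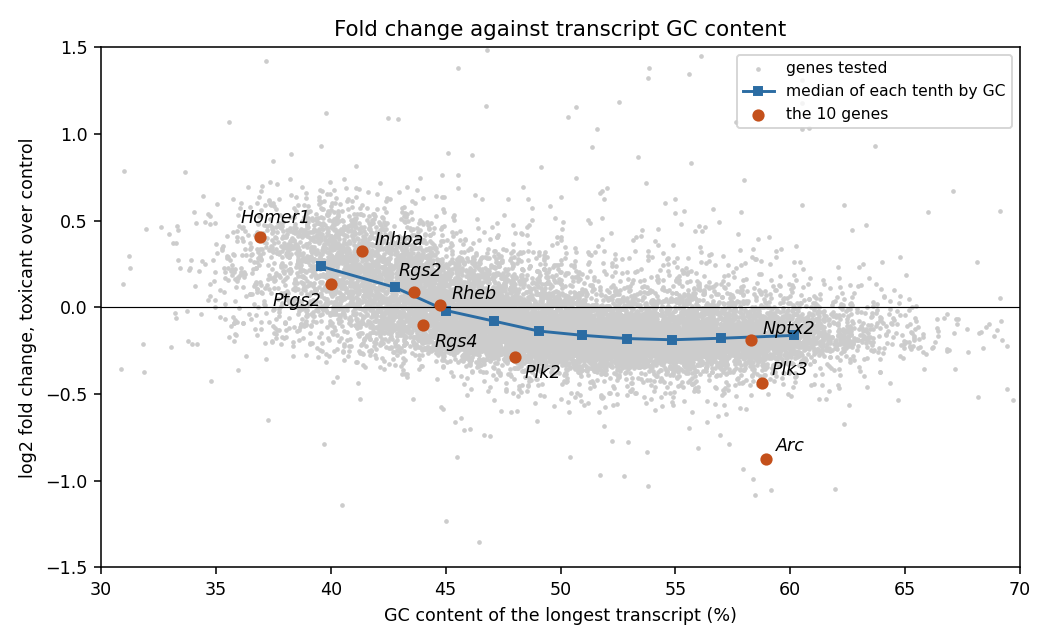
Log2 fold change of toxicant over control (vertical axis) against the GC content of the longest transcript in percent (horizontal axis) for 13453 tested genes (grey; 35 lie outside the axes), with the 10 genes in orange and the median of each decile of the genes by GC content in blue. The medians run from 0.24 in the lowest decile to -0.16 in the highest, and Arc, at -0.87, lies far below them.

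Nptx2, or Narp, is a secreted pentraxin that clusters AMPA receptors on interneurons (chromosome 5, 144545902 to 144557478, plus strand; ENSMUSG00000059991). It was at 15.9, 7.42, 10.3, 9.91 and 12.98 RPKM in the controls and between 7.75 and 13.4 RPKM, with a median of 9.48 RPKM, in the toxicant libraries. The groups overlapped over most of their range, and control 2 was the lowest of all libraries. The means were 11.3 ± 3.22 RPKM (SD, n = 5) and 9.70 ± 1.99 RPKM (SD, n = 6), and the log2 fold change of -0.19 ± 0.18 (SE) had a limma adjusted p of 0.460. Among the toxicant libraries Nptx2 fell with the gene share, from toxicant 1 (83.8%) to toxicant 4 (76.8%). Only toxicants 5 and 6, at 9.87 and 9.80 RPKM, broke that order. With the gene share in the model the sign of the Nptx2 log2 fold change turned, to 0.17. The part of the gene share was not tested.

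Ptgs2 encodes cyclooxygenase-2, the inducible enzyme of prostaglandin synthesis, which in the forebrain is found in excitatory neurons (chromosome 1, 150100031 to 150108227, plus strand; ENSMUSG00000032487). The controls stood at 2.81, 4.03, 2.89, 3.81 and 2.31 RPKM and the toxicant libraries between 2.83 and 4.26 RPKM, with a median of 3.42 RPKM. Most toxicant libraries lay within the control range. The means were 3.17 ± 0.725 RPKM (SD, n = 5) and 3.48 ± 0.495 RPKM (SD, n = 6), and the log2 fold change was 0.13 ± 0.13 (SE), with a limma adjusted p of 0.477. It was -0.07 with the gene share in the model and -0.07 after the GC trend was removed.

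Rgs2 and Rgs4 encode GTPase activators that shorten signalling by Gq and Gi proteins, Rgs2 acting mainly on Gq. Rgs4 (chromosome 1, 169741477 to 169747642, minus strand; ENSMUSG00000038530) was at 33.5, 22.4, 30.2, 24.0 and 33.4 RPKM in the controls. Its toxicant values ran from 21.05 to 28.6 RPKM with a median of 27.4 RPKM. The highest values were those of controls 1 and 6 and the lowest was that of toxicant 2. The means were 28.7 ± 5.19 RPKM (SD, n = 5) and 26.5 ± 2.89 RPKM (SD, n = 6), and the log2 fold change was -0.10 ± 0.12 (SE), with a limma adjusted p of 0.555. Its sign turned after median-ratio scaling (0.01), after quantile normalization (0.05) and with the gene share in the model (0.10).

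Rgs2 (chromosome 1, 143999338 to 144004161, minus strand; ENSMUSG00000026360) was at 4.97, 5.41, 5.69, 5.88 and 5.84 RPKM in the controls and between 5.21 and 6.97 RPKM, with a median of 5.91 RPKM, in the toxicant libraries. In 3 toxicant libraries it lay above the highest control and in the others within the control range. The means were 5.56 ± 0.379 RPKM (SD, n = 5) and 5.96 ± 0.619 RPKM (SD, n = 6), and the log2 fold change was 0.09 ± 0.08 (SE), with a limma adjusted p of 0.440.

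Rheb is the small GTPase that switches on the growth kinase complex mTORC1 (chromosome 5, 24802823 to 24842624, minus strand; ENSMUSG00000028945). It was the steadiest member relative to its level, at 10.4, 10.1, 10.6, 11.9 and 11.2 RPKM in the controls and from 9.85 to 11.9 RPKM, with a median of 11.1 RPKM, in the toxicant libraries. The groups overlapped almost completely. The means were 10.85 ± 0.686 RPKM (SD, n = 5) and 10.98 ± 0.741 RPKM (SD, n = 6). The log2 fold change was 0.02 ± 0.07 (SE), with a limma adjusted p of 0.878 and a 95% interval from -0.14 to 0.17, and its sign turned in 5 of 25 alternatives.

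**Figure D4:**
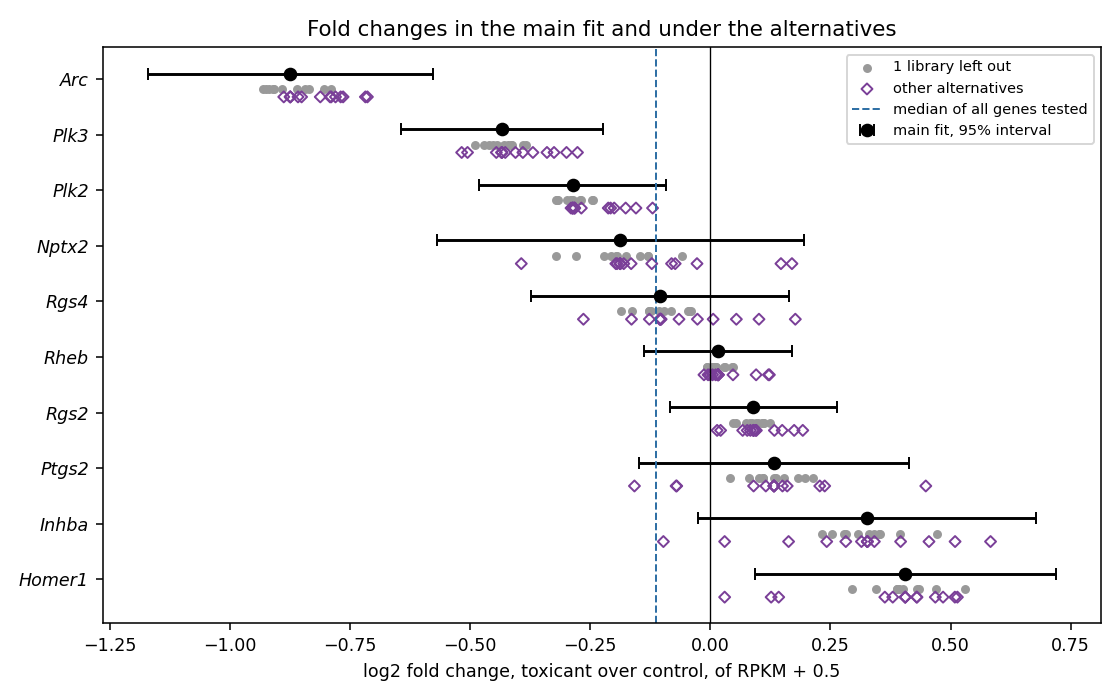
Log2 fold change of toxicant over control (horizontal axis) for the 10 genes, as the main estimate with its 95% interval (black), with 1 library left out (grey) and under the other alternatives (open diamonds). The point estimates of Arc, Plk3 and Plk2 lie below 0 and those of Homer1 and Rgs2 above 0 in every setting drawn, although the Rgs2 interval spans 0, and the point estimates of the remaining genes cross 0 in at least 1 alternative; the dashed line is the median of all genes tested, -0.11.

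In order of mean control level the genes ran Plk2, Arc, Rgs4, Nptx2, Rheb, Homer1, Rgs2, Ptgs2, Plk3 and Inhba. Plk2 and Arc, at 37.8 and 37.0 RPKM, did not differ beyond their spread, and neither did Nptx2 and Rheb, Homer1 and Rgs2, or Ptgs2 and Plk3. The ranges of Arc and Rgs4 also overlapped in controls, although Arc exceeded Rgs4 in every control but control 6 (31.2 against 33.4 RPKM). In the toxicant group the order was Plk2, Rgs4, Arc, Rheb, Nptx2, Homer1, Rgs2, Ptgs2, Plk3 and Inhba, so that Arc stood below Rgs4 (20.04 against 26.5 RPKM).

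Over the 11 libraries, the genes whose log2 levels followed Arc most closely were Egr1 (Pearson r = 0.95), Plk3 (0.95), Apod (0.95), Tnfaip6 (0.95) and Smug1 (0.94). Plk2 had an r of 0.83 with Arc and rank 158 among the tested genes, whereas Homer1 was at -0.70 and Inhba at -0.61. These values are descriptions, since the points share the group difference and each library's depth and gene share. Egr1 itself averaged 25.2 ± 3.98 RPKM (SD, n = 5) in controls against 14.4 ± 2.76 RPKM (SD, n = 6). After each group's mean was subtracted, the genes most like Arc were Dusp10 (0.93), Tnfaip6 (0.89), Gm28424 (0.89), Tmem216 (0.88) and Mad2l1bp (0.86). Plk3 then had an r of 0.83 and rank 7, and Plk2 an r of 0.51 and rank 511.

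The partners of these proteins were counted by list, and none of their genes passed the adjusted threshold. Each count below is to be read against all genes tested, of which 69.96% lay below 0, 17.0% had an unadjusted p under 0.05 on the lower side and 3.33% on the higher side. Arc recruits endocytic proteins to AMPA receptors, and of 23 tested genes of this machinery and its receptors 18 had a log2 fold change below 0, with a list median of -0.19 (all genes, -0.11). Of them, 5 had an unadjusted p under 0.05 on the lower side and 1 on the higher side (all genes, 17.0% and 3.33%). The endocytic partners Dnm2 and Sh3gl1 had log2 fold changes of -0.14 and -0.20. The AMPA receptor subunit Gria1 was at 135 ± 12.9 RPKM in control and 114 ± 10.7 RPKM in toxicant libraries, whereas Gria2 was at 35.4 ± 15.2 and 47.1 ± 7.39 RPKM (SD, n = 5 and n = 6), with log2 fold changes of -0.25 and 0.48. Neither of them reached the adjusted threshold.

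Homer proteins and their ligands had a median of -0.05 over 13 genes, 9 of them below 0 but only 3 below the median of all genes (-0.11), and none had an unadjusted p under 0.05. Homer2 and Homer3 were at -0.09 and -0.09, and the receptor Grm5 at 0.34. The pentraxins Nptx1 and Nptxr, which form complexes with Nptx2, were at -0.25 and -0.10. Of 18 prostaglandin enzymes and receptors 8 were tested, with a median of -0.09 and 5 below 0. Ptgs1, the constitutive cyclooxygenase, was at -0.14, and Ptgds at -0.42 had the only unadjusted p under 0.05. Ptges and the receptor Ptger3 lay under the filter.

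Of the kinases and synaptic substrates listed with Plk2, 6 of 7 were tested, 5 were below 0 (all genes, 69.96%), 3 had an unadjusted p under 0.05 on the lower side (all genes, 17.0%), and the median was -0.23. Rasgrf1, a Ras activator that Plk2 targets, averaged 40.2 ± 4.95 RPKM (SD, n = 5) in controls against 30.7 ± 1.94 RPKM (SD, n = 6), and the groups did not overlap, as for 2.03% of all genes. Its log2 fold change was -0.38 ± 0.09 (SE), with a limma adjusted p of 0.169. The Rap regulator Sipa1l1, which Plk2 directs to degradation, was at -0.23, and Plk5 was at -0.38.

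Of 19 other RGS genes 14 were tested, 11 below 0 and 7 below the median of all genes, with a median of -0.09, 3 with an unadjusted p under 0.05 on the lower side and 1 on the higher side. Rgs14, a gene of CA2 neurons, had the smallest p with a log2 fold change of -0.39, and Rgs7 and Rgs16 were at -0.04 and -0.20. Of the G protein subunits that RGS2 and RGS4 act on, 7 of 8 were tested, 5 lay below 0, none had an unadjusted p under 0.05 and the median was -0.16; Gnaq was at -0.09 and Gnao1 at -0.20. Around Rheb, 13 of 20 genes of the mTORC1 pathway lay below 0, 10 of them below the median of all genes, with a median of -0.12, 2 with an unadjusted p under 0.05 on the lower side and 1 on the higher. The mTORC1 inhibitor Ddit4 was at -0.44, Mtor at -0.20, Tsc1 at -0.03, Tsc2 at -0.13 and the Rheb relative Rhebl1 at 0.07.

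Around Inhba, 13 of 15 activin pathway genes were tested, 8 lay below 0 and the median was -0.20. An unadjusted p under 0.05 was found for 6 on the lower side and 2 on the higher (all genes, 17.0% and 3.33%). The type 1 receptor Acvr1 was at -0.31 and the type 2 receptor Acvr2a at 0.51, and Inhbb, the other beta subunit, at -0.19; the activin-binding protein Fst lay under the filter. Of 20 regulators of activity-dependent transcription, 13 lay below 0 with a median of -0.07, and 4 and 3 had an unadjusted p under 0.05 on the lower and the higher side. Camk4, a nuclear kinase of CREB, was at 0.32 and Creb1 at 0.48, while Srf was at -0.21 and Mef2c at 0.06.

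Of 28 other activity-induced genes 27 were tested, 24 lay below 0 and the median was -0.24. An unadjusted p under 0.05 was found for 12 on the lower side (17.0% of all genes) and 1 on the higher side (3.33%). In 5 of them no toxicant library reached the lowest control (2.03% of all genes): Fos, Junb, Egr1, Nr4a1 and Btg2. Btg2, with the smallest p, averaged 4.93 ± 0.682 RPKM (SD, n = 5) in controls against 3.13 ± 0.193 RPKM (SD, n = 6), with a limma adjusted p of 0.0715. Fos was at -0.69, Bdnf at -0.07 and Nrn1, which is among the 12 on the lower side, at -0.24. Egr2, which lay under the filter and was not tested, was at 0.689 ± 0.126 RPKM (SD, n = 5) in controls and 0.337 ± 0.172 RPKM (SD, n = 6) after exposure.

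**Figure D5:**
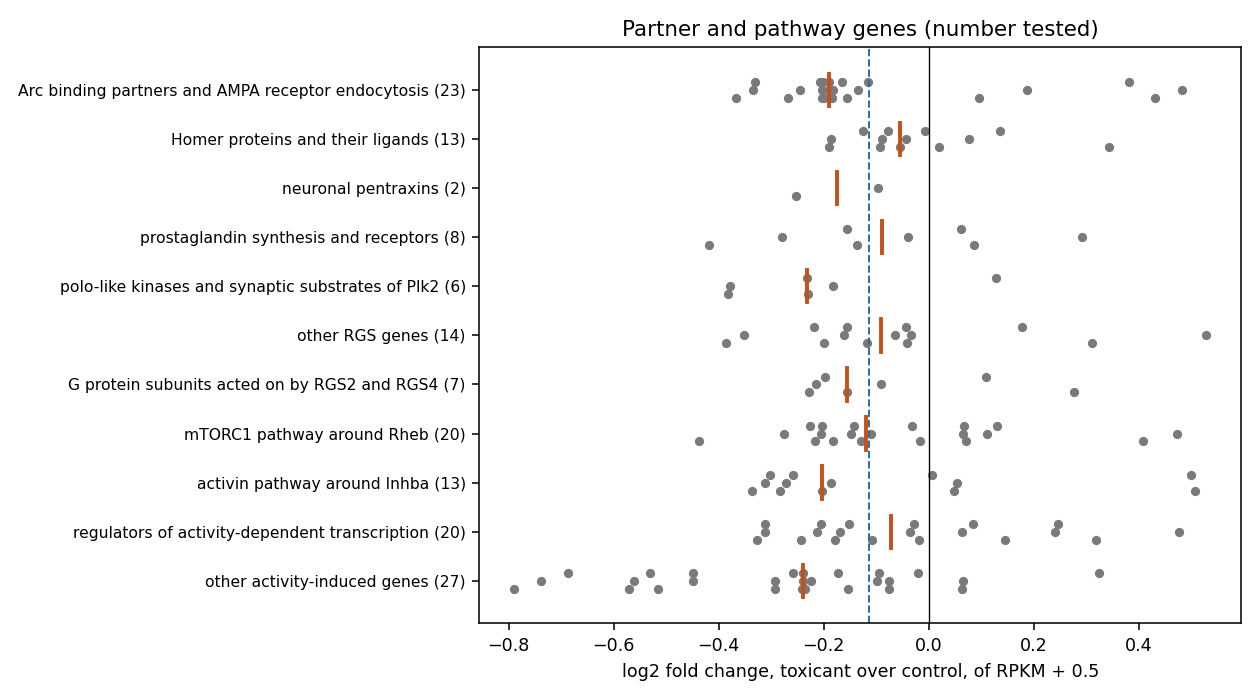
Log2 fold change of toxicant over control (horizontal axis) for each tested gene (grey points) of 11 partner and pathway lists, with the number tested in brackets; orange bars are list medians and the dashed line is the median of all genes tested. The list medians lie between -0.24 and -0.05, and the longest tail below 0 is that of the other activity-induced genes, which reaches -0.79.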

How the data were processed

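RNA-seq of hippocampus was deposited as 1 table of RPKM values, computed by the authors per the file headers, for 41743 genes and 12 samples. Aligner, counting program and build: not given in the sources used here. Control 4 and control 5 held identical values and were counted once, leaving 5 control and 6 toxicant libraries. Nothing in the labels names a batch, and the p-values measure the spread between these animals.

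The members, partner lists and marker lists were chosen with earlier results of these data known. The rule for genes named took all 10 members, relatives and partners listed by symbol, the tested gene of each list with the smallest p, and the 5 genes most like Arc before and after subtraction of group means. A gene that this rule takes is not reported here. All 173 list symbols were found and 153 passed the filter.

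Values were analysed as log2(RPKM + 0.5), which understates the change of low genes. The 13493 genes averaging 0.5 RPKM or more were tested two-sided with limma 3.58.1 in R 4.3.3 (mean-variance trend in eBayes), with Benjamini-Hochberg adjustment over all of them and a threshold of 0.05. The procedure was tested on simulated data with independent noise for each gene, so shifts shared by many genes of a library were not simulated. Multiplied by exon length in GENCODE M21 (GRCm38), between 98.3% and 98.4% of a library's values were whole multiples of 1 read within 0.05 reads, which gave depths and, per library, the percentage of reads on genes (the gene share). That annotation, which held 41675 of the gene IDs, also gave positions and GC content. Strandedness is not stated, so genes that overlap may share reads. Promoter windows are from RefSeq (GRCm38.p6).

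Alternatives were pseudocounts of 0.1 and 1, a filter at 1 RPKM or none, quantile and median-ratio scaling, removal of the GC trend, no variance trend, sample weights, voom on the recovered reads, an exact rank-sum permutation test, the replicate number as a block, the gene share as a covariate, all 12 columns, each library left out, and an adjusted threshold of 0.1. Leaving out controls 1, 3 and 6 together was chosen after the data were seen. Python 3.11.15 and pandas 2.3.3 were used for tables.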

Additional observations from a re-analysis of the deposited data

Results flagged for a closer look

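Values of 10 genes in 2 groups, 20 sets in all, were screened for a library that stands apart, and 1 was found, about what chance gives at 1 in 20 groups. Rgs4 in toxicant 2 was at 21.05 RPKM. The screen used the log2 scale of the fold changes. On that scale the gap to the nearest other toxicant library was 0.649 of the group's range, above the limit of 0.625 for 6 samples. Gaps on the RPKM scale were not screened. Without toxicant 2 the Rgs4 log2 fold change was -0.04 in place of -0.10.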

How the results depend on the processing

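Over 25 alternatives the signs of Arc, Plk3, Plk2, Homer1 and Rgs2 held. With 1 library left out, Arc ranged from -0.93 to -0.79 on the log2 scale, the number of members called from 0 to 5 and the number of genes called from 0 to 4932. All these calls came without control 2, where 4932 of 13468 genes (1153 higher, 3779 lower) and 5 of the 10 members were called. The members were Arc (-0.89), Plk3 (-0.49), Plk2 (-0.32), Homer1 (0.53) and Inhba (0.47). Sample weights ran from 0.132 for control 2 to 12.5 for control 6. They called 9553 of the 13493 genes (2863 higher, 6690 lower) and 8 of the 10 members. These members were Arc at -0.79, Homer1 at 0.48, Nptx2 at -0.39 and Ptgs2 at 0.45. The others were Plk2 at -0.28, Plk3 at -0.52, Rgs4 at -0.26 and Inhba at 0.51. With all 12 columns, which count the duplicate library as 2, 10 genes and 1 member (Arc, -0.85) were called. An adjusted threshold of 0.1 called 11 genes and 1 member, a pseudocount of 0.1 called 1 gene and no member, and leaving out controls 1, 3 and 6 called 5 genes and no member.

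Signs turned for Rgs4 under median-ratio scaling (0.0057), quantile normalization (0.054), the gene share as covariate (0.10) and without controls 1, 3 and 6 (0.18). They turned for Ptgs2 with the GC trend removed (-0.070), the gene share as covariate (-0.071) and without those controls (-0.16), for Nptx2 with the gene share as covariate (0.17) and without those controls (0.15), and for Inhba without those controls (-0.10). Rheb, which ranged from -0.0076 to 0.047 with 1 library left out, turned with the GC trend removed (-0.013), with 12 columns (-0.0049), without control 2 (-0.0071), without toxicant 6 (-0.0076) and without those controls (-0.00057). Beyond fewer libraries or the doubled one, the cause was not tested.

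The labels do not say whether the replicate numbers pair the samples, and the values do not settle it. Same-numbered libraries had correlations of deviations from -0.30 to 0.62, and libraries of different numbers from -0.65 to 0.50. With the replicate block no gene and no member was called, and Arc was at -0.79 in a fit that leaves out toxicant 5, which has no partner of its own. Not every library correlated best with its own number. Inhba and Plk3 had as few as 98 and 100 reads in a library, which limits their precision.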
